A study of Mus musculus with 16 samples.

Results

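Bone marrow stromal cells were cultured from 12-week-old male C57BL/6J mice of 4 genotypes and profiled by single-cell RNA-Seq, and the cells described here are those caught in G2 or mitosis. WT mice carried normal Dmp1 alleles, Fgf23cKO mice lacked Fgf23 in cells that express a Dmp1-cre transgene (mature osteoblasts and osteocytes), Dmp1KO mice lacked Dmp1 in every cell, and Dmp1KO Fgf23cKO mice had both changes. All 4 groups carried floxed Fgf23 alleles, with cre in Fgf23cKO and Dmp1KO Fgf23cKO only, and all cultures were grown for 21 days with ascorbic acid and 10 mM β-glycerophosphate (bGP). The cells of 3 cultures per genotype were given culture tags, sorted as live cells and pooled in 1 droplet reaction, so that genotype and reaction cannot be told apart, and a further sample per genotype was read as the untagged cells of the same pool. The first Dmp1KO culture was not analysed here, which leaves n = 2 for Dmp1KO and n = 3 for each other genotype.

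G2 and mitotic (G2/M) cells were chosen by the transcripts they held. Cells with at least 500 detected genes and under 20% mitochondrial unique molecular identifiers (UMIs, each standing for 1 captured transcript) were kept, and 2 scores were formed as UMIs per 10000 gene UMIs of the cell. The M score summed Cenpf, Hmmr, Ube2c, Cdc20, Aspm, Birc5, Cenpe, Prc1, Tpx2 and Plk1. The S score summed the histone genes Hist1h1b, Hist1h3c, Hist1h2ae, Hist1h2ap and Hist1h2ab with Pclaf and Rrm2. A cell was a member if its M score was at least 10 and at least as high as its S score, and members were set beside non-cycling cells, with an M score under 10 and an S score under 15. Of 17793 barcodes in 15 samples, 15847 cells passed the filter, and 701 of them were G2/M cells, 694 S cells, 14451 non-cycling cells and 1 neither. The 11 tagged cultures held 560 of the members and the 4 untagged samples held 141.

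Cells that have copied their DNA pass through G2 and then divide in mitosis. On the way they build up cyclin B with its kinase CDK1, the motors and clamps that form the spindle, and the kinetochore proteins that tie chromosomes to it. The anaphase-promoting complex then marks cyclin B and securin for destruction, which lets the chromosomes part and the cell leave mitosis. Many of the genes concerned share a promoter element, the cell cycle genes homology region (CHR), at which the DREAM complex holds them silent in resting cells and MYBL2 and FOXM1 switch them on in G2. Macrophages, which grow out of bone marrow beside stromal cells, can divide in culture under colony-stimulating factor 1.

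The core of that element, TTTGAA, was looked for on both strands (as TTTGAA or TTCAAA) in the RefSeq promoters of the M score genes (GRCm38.p6), from 250 bases before the start of the gene to 50 bases after it. Of the 10 genes, 9 had an entry, and 7 of the 9 (77.8%) held the 6 letters, in each case within 50 bases of the start, against 20.2% of 27025 genes with an entry for the whole window and 5.72% within 50 bases. The windows of these 7 genes are shown because they hold the 6 letters that 7 of the 10 genes used to choose the cells have in common. Each is 30 bases, read 5′ to 3′ on the strand of the gene, with the 6 letters in capitals.
Cenpf: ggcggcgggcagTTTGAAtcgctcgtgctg
Hmmr: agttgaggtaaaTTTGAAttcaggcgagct
Ube2c: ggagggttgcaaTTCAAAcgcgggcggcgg
Cdc20: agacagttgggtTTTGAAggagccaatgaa
Aspm: ggaggcgcgataTTTGAAccgagcaaaagc
Prc1: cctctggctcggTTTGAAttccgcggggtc
Plk1: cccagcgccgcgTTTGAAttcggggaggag
The windows lie at chr1:189688067-189688096 (minus strand) for Cenpf, chr11:40733412-40733441 (minus) for Hmmr, chr2:164769888-164769917 (plus) for Ube2c, chr4:118437344-118437373 (minus) for Cdc20, chr1:139454767-139454796 (plus) for Aspm, chr7:80294434-80294463 (plus) for Prc1 and chr7:122159453-122159482 (plus) for Plk1. With the first base of the gene as 1 and the base before it as -1, the first capital stood at position 3 in Cenpf, 9 in Hmmr, -29 in Ube2c, -18 in Cdc20, 7 in Aspm and 31 in Plk1, and at -5 or -30 in Prc1, which has 2 listed starts. Birc5 and Cenpe held no such letters in this window.

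The genes of the M score are given first, as a description, since they chose the cells. In the 11 tagged cultures, each M score gene was at a median between 152 and 480 CPM (the UMIs of a gene per 1000000 UMIs summed over the cells of a culture) in members and between 0.627 and 10.3 CPM in non-cycling cells. Cenpf, a kinetochore-linked protein made in G2, was at 364 to 608 CPM in members against a median of 3.93 in non-cycling cells. Ube2c, the ubiquitin-conjugating enzyme of the anaphase-promoting complex, was at 360 to 547 CPM against a median of 4.66. Cdc20, which activates that complex, was at 129 to 220 CPM against a median of 1.76. Birc5 (survivin), a part of the chromosomal passenger complex, was at 356 to 503 CPM against a median of 10.3, the highest non-cycling level in this set.

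The threshold cut through a continuous score. In all samples, 91 non-cycling cells had an M score of 8 to 10, with a median of 19326 UMIs, and 60 members had a score of 10 to 12, with a median of 17180 UMIs. A cell with up to 1000 UMIs became a member by a single M score UMI, and 27 members had only 1 such UMI. Members with fewer than 3 numbered 48 of 701, of which 32 were untagged cells, and 15 of the 16 in tagged cultures were WT cells.

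Sequencing depth differed between the reactions, and the untagged samples stood apart. Total gene UMIs per tagged culture ran from 9518928 to 16409761 in WT, from 18118955 to 20137776 in Fgf23cKO, from 62920544 to 72482185 in Dmp1KO and from 19667133 to 35219420 in Dmp1KO Fgf23cKO. The median member of a tagged culture had 7772 to 9532 UMIs in WT, 40083 to 68337 in Fgf23cKO, 28399 to 34218.5 in Dmp1KO and 45364 to 54823 in Dmp1KO Fgf23cKO. In the untagged samples that median was 1654, 3802.5, 20287 and 938 UMIs. The untagged WT and Dmp1KO Fgf23cKO samples also had the highest shares of members, 7.71% and 7.50%. Untagged cells are therefore described but kept out of the main tests. Where they were added as an alternative setting, they were treated as a further replicate. They are cells of the same pool and not a further culture, so such values have no replicates of their own. No barcode was shared by libraries of 1 genotype (21 pairs), and 35 were shared over the 84 pairs of libraries of different genotypes, with at most 6 in a pair.

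The genes that the genotypes alter were read in all filtered cells as a check of the labels. Dmp1, the matrix protein of osteocytes, had 453, 440 and 1758 UMIs in the WT cultures, 930, 1176 and 147 in Fgf23cKO, 0 and 3 in Dmp1KO and 76, 47 and 26 in Dmp1KO Fgf23cKO. In CPM of all filtered cells it was at 47.9, 27.3 and 108 in WT and 46.7, 65.5 and 7.38 in Fgf23cKO. It was at 0 and 0.0478 CPM in Dmp1KO and 2.18, 1.52 and 1.33 in Dmp1KO Fgf23cKO. Dmp1 was thus lowest in the Dmp1KO cultures, low but present in Dmp1KO Fgf23cKO, and reads of a 3′ kit cover the end of the transcript, while neither the labels nor the methods say how much of that end the deletion leaves. In non-cycling cells, 14 stromal and osteoblast genes summed to 952.8 and 1924 CPM in Dmp1KO, against 12100, 6094 and 17880 in WT. The part of this in the level of Dmp1 was not tested. Fgf23, the phosphate-regulating hormone itself, had 0 to 8 UMIs in a culture and gives no check. In G2/M cells Dmp1 had at most 5 UMIs in a culture and Fgf23 none.

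Nearly all G2/M cells carried macrophage markers. Of the 560 tagged members, 548 (97.9%) had more UMIs from 14 macrophage genes than from 14 stromal and osteoblast genes, and over all samples it was 671 of 701. The 12 exceptions in tagged cultures were 5 WT, 3 Dmp1KO and 4 Dmp1KO Fgf23cKO cells. Members were 4.36% of the macrophage-marked cells of the tagged cultures, 548 of 12570, and 1.56% of the remaining cells, 12 of 769. Lyz2 (lysozyme), the most abundant of the 14 macrophage genes, was at a median of 13000 CPM in members and 20500 in non-cycling cells. The macrophage list summed to 16630 to 33810 CPM in the members of a culture. Csf1r, the receptor for colony-stimulating factor 1, was at a median of 692 CPM in members and 729 in non-cycling cells, and Adgre1 (F4/80) at 394 and 487.

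Markers of other cell types were measured in members by list. The stromal and osteoblast list summed to 159.6 to 1432 CPM in the members of 9 cultures but to 48200 and 3779 in replicates 2 and 3 of Dmp1KO Fgf23cKO. In replicate 2, Col1a1, the chain of type I collagen, was at 18800 CPM in all members and at 130 in its macrophage-marked members, so that 3 cells carried most of it. Non-cycling cells of the 11 cultures held 952.8 to 20770 CPM of the list. The osteoclast list, led by the protease gene Ctsk, summed to 38.06 to 2986 CPM in members, highest in replicate 3 of Dmp1KO Fgf23cKO, with a median of 536.8 against 596.8 in non-cycling cells, and Calcr, the calcitonin receptor of mature osteoclasts, was at 0. The 5 chondrocyte genes summed to 0 to 12.84 CPM in the members of 10 cultures and to 110.5 in replicate 3 of Dmp1KO Fgf23cKO, against 34.18 in its non-cycling cells, nearly all of it Col2a1 at 107 CPM. The 8 neutrophil genes summed to 1.315 to 24.62 CPM in the members of a tagged culture, most of it S100a8 (median 5.98 CPM, against 7.37 in non-cycling cells), while S100a9, Ngp and Elane were at 0, as was Ly6g, also at 0 in non-cycling cells. Also at 0 in members were Igkc of B cells, Cd3e and Nkg7 of T and NK cells and Flt3 and Xcr1 of dendritic cells, and other genes of these lists were at 1.79 CPM or less in every tagged culture.

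Among the genes with the highest ratio in members outside the scores were genes of the spindle, chromosomes, cyclins and mitotic exit. No test set these lists against each other. The 20 highest were Nusap1, Kif2c, Top2a, Ccna2, Pimreg, Kif4, Kif23, Ckap2l, Prr11, Kif11, Cep55, Ccnb1, Nek2, Kif20a, Ckap2, Anln, Cdca3, Aurka, Pbk and Bub1, with median log2 ratios from 6.20 down to 4.99, and each was higher in members in 11 of 11 cultures. Nusap1, which bundles spindle microtubules, was at a median of 163 CPM in members and 1.51 in non-cycling cells. Top2a, the topoisomerase that untangles sister chromosomes, was at 470 and 10.8 CPM. Ccna2 (cyclin A2) was at 159 and 2.60 CPM, and Ccnb1 (cyclin B1) at 179 and 3.15. Of the 20 genes, 16 had a promoter entry, and 12 (75.0%) held TTTGAA or TTCAAA, 10 of them (62.5%) within 50 bases of the start. The window of Top2a, at chr11:99024195-99024224 (minus strand) with its first capital at position -23, is shown because Top2a had the highest ratio of these 10.
Top2a: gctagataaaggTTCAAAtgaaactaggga
Nusap1, Ccnb1, Nek2 and Bub1 held none of these letters in this window. A second motif of such promoters, CCAAT on either strand, stood in 8 of the 9 M score promoters (88.9%), in 12 of the 16 (75.0%) and in 41.1% of all genes with an entry.

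The 10 lowest genes with at least 20 CPM in non-cycling cells were Ptprd, Igfbp5, Igfbp7, Col11a1, Timp3, Col3a1, Bglap, Csmd1, Ank3 and Mgp, with median log2 ratios from -5.23 to -4.61. Several of them, such as the collagen genes Col11a1 and Col3a1 and the osteocalcin gene Bglap, are made by stromal cells and osteoblasts. Their ratios ranged widely between cultures, in 5 of the 10 from a fall to a value above 0, as the plot of ratios shows.

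**Figure D1:**
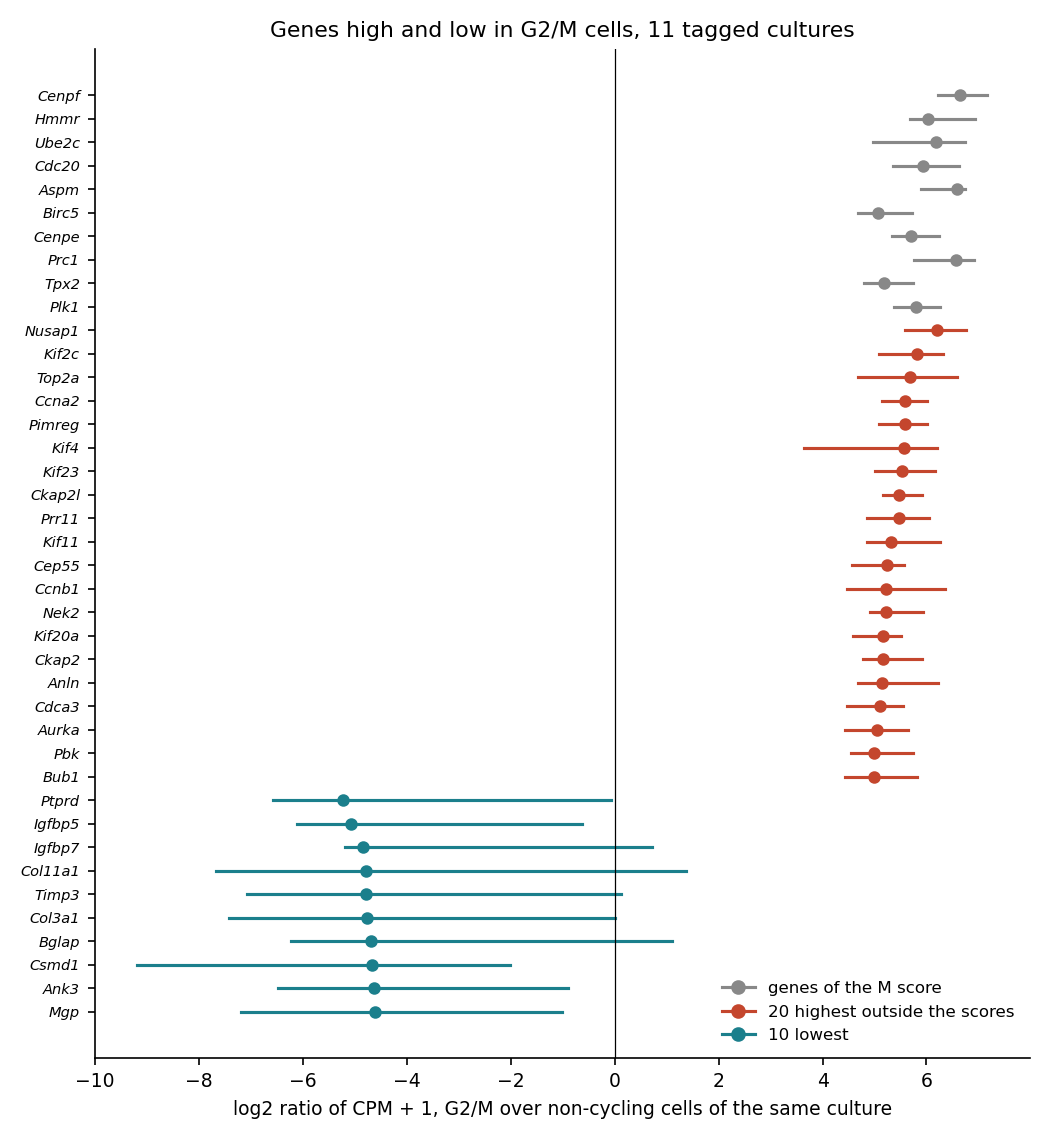
Log2 ratio of CPM + 1 in G2/M over non-cycling cells of the same culture, for the 10 genes of the M score, the 20 highest genes outside the scores and the 10 lowest (point, median of 11 tagged cultures; line, lowest to highest culture). The M score genes chose the cells and are shown as a description, and the 20 genes below them lie at medians of 4.99 to 6.20.

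Cyclins and the CDK1 module were high throughout. Of 11 genes of that list at 20 CPM or more, 10 were higher in members in all 11 cultures, with a median log2 ratio of 3.87, against 17.2% of 7141 genes at that level and a median of 0.02. Cks2, which helps CDK1 bind its targets, was at a median of 319 CPM in members and 11.5 in non-cycling cells. Ccnb2 (cyclin B2) was at 237 and 10.7 CPM, and Cdk1 at 197 and 14.2. Wee1, the kinase that holds CDK1 back, was the exception, at 26.1 and 14.2 CPM and higher in 10 of 11 cultures.

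Outside the score genes, spindle genes had the highest median ratio of the lists. All 22 spindle and motor genes at 20 CPM or more were higher in members in every culture, with a median log2 ratio of 4.85. Of all 7141 genes at that level, 17.2% were higher in every culture, which holds for the other lists here too. Kif11, the motor that pushes the spindle poles apart, was at a median of 142 CPM in members and 2.58 in non-cycling cells, and Aurka (Aurora A), the kinase of the poles, at 82.3 and 1.66. Of 19 kinetochore and checkpoint genes, 18 were higher in all cultures (median 4.04). Cenpa, the histone that marks the centromere, was at 391 and 25.3 CPM, and Bub1, a checkpoint kinase, at 74.2 and 1.37. Zwint, a kinetochore linker, was at 50.6 and 49.2 CPM and so hardly differed. Of 14 chromosome genes, 12 were higher in all cultures (median 3.45), and Ncapg2, a condensin subunit, was at 51.4 and 72.2 CPM and higher in 4 of 11 cultures.

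Genes of mitotic exit had lower ratios. Of 14, 13 were higher in members in every culture, with a median log2 ratio of 2.61, against 17.2% of all genes at 20 CPM or more. Ube2s, which lengthens the ubiquitin chains made by the anaphase-promoting complex, was at a median of 468 CPM in members and 81.7 in non-cycling cells. Pttg1 (securin) was at 41.9 and 31.9 CPM, and higher in 10 of 11 cultures. Among regulators of the programme, Foxm1 was at 39.3 and 2.09 CPM, Lin9, a DREAM subunit, at 32.9 and 14.8, and Mybl2 at 3.21 and 1.94, although Mybl2 was at 30.4 in S cells.

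Genes of DNA replication were split. Of 16 at 20 CPM or more outside the S score, 11 were higher in members in every culture, with a median log2 ratio of 1.29. Of all genes at that level 17.2% were, with a median of 0.02. Tk1 (thymidine kinase) was at 77.6 CPM in members, 7.74 in non-cycling cells and 201 in S cells, and Rrm1, a subunit of ribonucleotide reductase, at 136, 25.2 and 256. Pcna, the clamp of the replication fork, was at 144 CPM in members, 128 in non-cycling cells and 582 in S cells. The G1/S cyclin Ccne2 was at 0.966 CPM in members, 4.03 in non-cycling cells and 96.6 in S cells, and Mcm6, of the replicative helicase, at 36.3, 35.5 and 185. Tk1 and Rrm1 were thus above the level of non-cycling cells in members, while Mcm6 and Pcna were near it and Ccne2 was below it.

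Of 14 G1 genes, 3 were higher and 5 lower in members in every culture, with a median log2 ratio of -0.03, while 17.2% of all genes at that level were higher and 10.7% lower. The share of higher genes is near that of all genes. Cdkn2c (p18) was at a median of 101 CPM in members and 13.2 in non-cycling cells, and Cdkn2d (p19) at 73.8 and 8.06. Cdkn2a, which encodes p16 and ARF, was at 17.4 and 131 CPM, and Ccnd2 (cyclin D2) at 15.8 and 191. Cdkn1a (p21) was at 236 and 325 CPM and lower in 11 of 11 cultures. Of 8 p53 target genes at 20 CPM or more, none was higher in all cultures and 4 were lower (median -0.48), among them Mdm2 at 84.1 and 112 CPM.

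Macrophage genes of the lipid-handling type summed to less in members than in non-cycling cells of every tagged culture, by a smaller step in Dmp1KO. The list summed to 11010 to 17360 CPM in members and 25390 to 29560 in non-cycling cells of the 9 other tagged cultures, but to 45580 and 38340 in members and 48310 and 43840 in non-cycling cells of the 2 Dmp1KO cultures. Spp1 was higher in members there, at 17400 and 13500 CPM against 11300 and 9470. Of 12 such genes, 6 were lower in every culture and none higher, with a median log2 ratio of -1.06, against 10.7% of the 7141 genes that were lower in every culture. Gpnmb, a lysosomal glycoprotein, was at a median of 1030 CPM in members and 2170 in non-cycling cells, and Apoe (apolipoprotein E) at 8420 and 14100. Mmp12, the macrophage elastase, was at 30.3 and 493 CPM, and in Dmp1KO at 1100 and 803 CPM in members against 2470 and 1930. Of 10 immediate early genes that tissue dissociation can raise, 4 were lower in members in every culture and none higher (median -0.65), with Jund at 118 and 260 CPM. Of 14 macrophage genes, 2 were lower in every culture and none higher (median -0.20).

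Within the members, other division genes were higher where the M score was higher. Of the 560 tagged members, 184 (32.9%) had an M score of 10 to 20, 240 (42.9%) of 20 to 40 and 136 (24.3%) of 40 or over. Cells of all cultures were summed in each range, so the values have no replicates. Top2a was at 74.2, 375 and 1040 CPM in the 3 ranges, Cdk1 at 45.5, 177 and 358, and Ccnf (cyclin F), a ubiquitin ligase subunit that peaks in G2, at 3.63, 30.2 and 87.3. Ccnb1 was at 82.1, 172 and 273 CPM. Ccnb2 moved less, at 202, 215 and 287 CPM, as did Pcna at 136, 172 and 172. In the lowest range Top2a and Cdk1 still lay above their medians of 10.8 and 14.2 CPM in the non-cycling cells of a culture. Their median UMI count was 20600, against 25384.5 and 31814 in the other ranges, and its part in these values was not tested. Lyz2 was at 12900, 13000 and 13800 CPM. The highest range held 23.2% of the tagged WT members, 30.0% in Fgf23cKO, 24.9% in Dmp1KO and 21.1% in Dmp1KO Fgf23cKO.

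**Figure D2:**
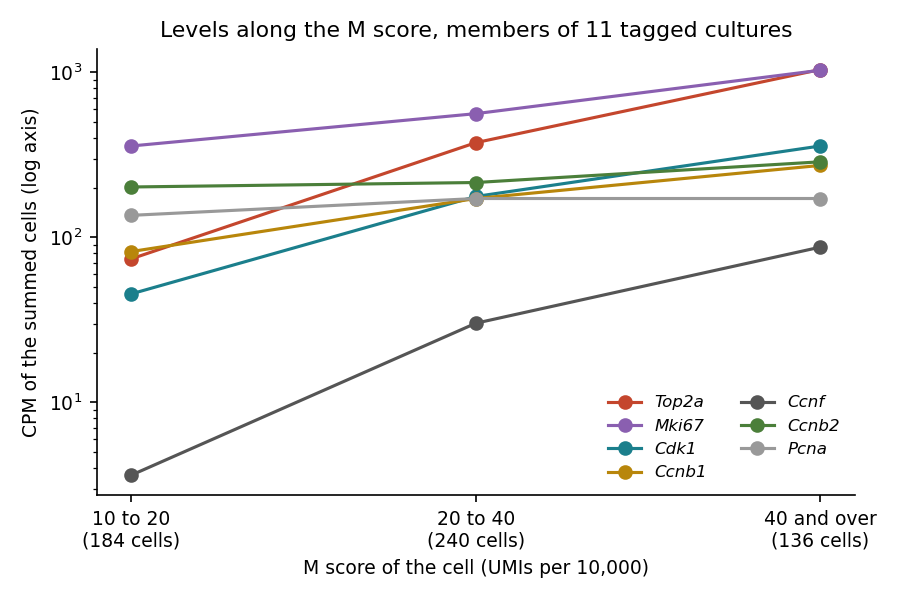
CPM (log axis) of 7 genes outside the M score in tagged members grouped by M score (UMIs per 10000, x axis), each point the sum over the cells of all 11 cultures, with no replicates. Top2a goes from 74.2 to 1040 CPM and Ccnf from 3.63 to 87.3, while Pcna goes from 136 to 172.

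The share of G2/M cells differed between the genotypes when all 4 were tested together. In WT, members were 5.01% of filtered cells in replicate 1 (exact Clopper-Pearson 95% interval 3.76 to 6.52), 3.17% in replicate 2 (2.43 to 4.06) and 4.62% in replicate 3 (3.67 to 5.73). In Fgf23cKO they were 3.53% (1.99 to 5.75), 2.84% (1.42 to 5.02) and 2.66% (1.46 to 4.43). In Dmp1KO they were 5.15% (4.35 to 6.05) and 5.13% (4.31 to 6.05). In Dmp1KO Fgf23cKO the shares were 2.72% (1.73 to 4.05), 2.79% (1.74 to 4.24) and 2.77% (1.48 to 4.68). The Dmp1KO cultures lay above all others, and those of Dmp1KO Fgf23cKO below every WT culture. The intervals cover counting error only.

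The mean share was 4.27% ± 0.969 (SD, n = 3) in WT, 3.01% ± 0.459 (n = 3) in Fgf23cKO, 5.14% ± 0.0167 (n = 2) in Dmp1KO and 2.76% ± 0.0374 (n = 3) in Dmp1KO Fgf23cKO. An exact permutation test of the cultures over the 4 genotypes gave p = 0.0169, and 0.0275 after adjustment over 3 such measures. Fgf23cKO and Dmp1KO Fgf23cKO overlapped, as did Fgf23cKO and WT. Dmp1KO Fgf23cKO was 2.38 percentage points below Dmp1KO and 1.51 below WT, in both cases with no overlap and an exact two-sided permutation p = 0.1, the smallest that 3 cultures against 2 or 3 allow. Dmp1KO was 0.873 points above WT (exact p = 0.3) and Fgf23cKO 1.26 below WT (exact p = 0.2). With a culture left out, the first difference ran from 0.325 to 1.245 points and the second from -1.805 to -0.885. After adjustment over 12 comparisons no pair passed, with adjusted p between 0.4 and 0.514 for the share.

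Depth bears on the share, since a shallow cell needs few M score UMIs. When each cell was thinned to 2000 UMIs, which left out 230 tagged WT cells, 15 of Fgf23cKO, 53 of Dmp1KO and 21 of Dmp1KO Fgf23cKO, members were 5.66, 4.52 and 4.62% of WT cells, 3.55, 2.62 and 2.88% of Fgf23cKO, 6.52 and 6.41% of Dmp1KO and 3.20, 2.84 and 3.66% of Dmp1KO Fgf23cKO. WT lay above Fgf23cKO and Dmp1KO Fgf23cKO and below Dmp1KO in every culture, and the exact permutation test over the 4 genotypes gave p = 0.00195. At full depth the same cells gave 4.43, 3.14 and 3.93% in WT, which overlapped Fgf23cKO at 3.55, 2.62 and 2.69%. Dmp1KO was then at 5.19 and 5.16%. Thinning was drawn once and changed which cells were members. With the untagged samples added as if they were further replicates, at full depth, a permutation test with 100000 draws gave p = 0.318.

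**Figure D3:**
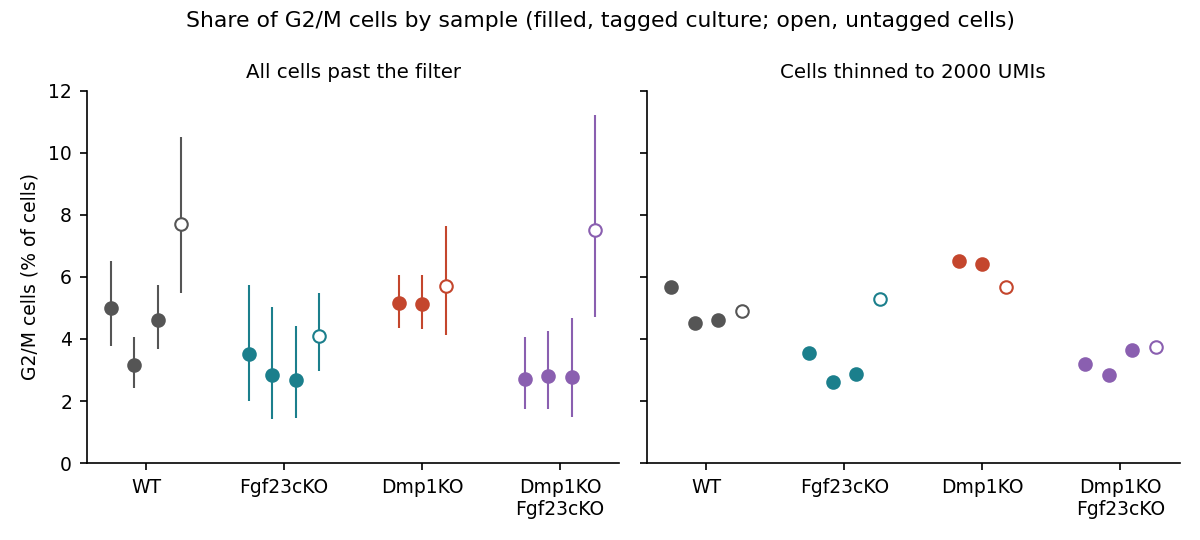
Share of G2/M cells in % of filtered cells by genotype, in all cells (left; bars, exact 95% intervals) and after thinning to 2000 UMIs per cell (right), with tagged cultures filled and untagged cells open. The Dmp1KO cultures lie at 5.13 and 5.15% and the Dmp1KO Fgf23cKO cultures at 2.72 to 2.79%, and the untagged WT and Dmp1KO Fgf23cKO samples at 7.71 and 7.50%.

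Members were also counted against S cells, as a measure of how cycling cells were spread over the cycle. The S score cut was the same in all reactions, while the level of its genes in non-cycling cells differed. They summed to 104.4, 111.4 and 106.0 CPM in WT, 169.1, 135.3 and 183.4 in Fgf23cKO and 216.7 and 186.9 in Dmp1KO. In Dmp1KO Fgf23cKO they summed to 110.9, 103.6 and 106.5 CPM. The part of this in the ratio was not tested. There were 0.963, 0.811 and 1.05 members per S cell in the WT cultures and 0.682, 0.478 and 0.609 in Fgf23cKO, with no overlap. The mean log2 ratio was -0.09 ± 0.192 (SD, n = 3) in WT, -0.78 ± 0.261 (n = 3) in Fgf23cKO, 0.12 ± 0.358 (n = 2) in Dmp1KO and -0.03 ± 0.227 (n = 3) in Dmp1KO Fgf23cKO. Fgf23cKO was 0.68 below WT on the log2 scale (difference -0.68, exact two-sided permutation p = 0.1, adjusted 0.4). Over the 4 genotypes an exact permutation test gave p = 0.0183, adjusted 0.0275, and p = 0.0679 without replicate 2 of Fgf23cKO, the culture with 11 members and 23 S cells. With the untagged samples added, a permutation test with 100000 draws gave p = 0.162. The other 3 genotypes overlapped one another, and all their cultures lay above those of Fgf23cKO.

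The median G2/M cell held more UMIs than the median non-cycling cell in every tagged culture. The median member of a WT culture had 9532, 9056 and 7772 UMIs against 7344.5, 7173 and 7726 in non-cycling cells, so that replicate 3 hardly differed. The mean log2 ratio of the medians was 0.24 ± 0.202 (SD, n = 3) in WT, 0.50 ± 0.416 (n = 3) in Fgf23cKO, 0.57 ± 0.115 (n = 2) in Dmp1KO and 0.50 ± 0.13 (n = 3) in Dmp1KO Fgf23cKO. The 4 genotypes did not pass an exact permutation test (p = 0.507). In the untagged samples of WT, Fgf23cKO and Dmp1KO Fgf23cKO the median member held fewer UMIs than the median non-cycling cell.

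Gene expression in G2/M cells was then compared between genotypes on UMIs summed over the members of each tagged culture (edgeR quasi-likelihood test, Benjamini-Hochberg adjustment over 8938 genes, adjusted p under 0.1). Since genotype is also reaction, no difference between genotypes, those of Dmp1KO alone included, can be told apart from the reaction. This holds also for a difference of all 3 other genotypes from WT, whose reaction was the shallowest. Dmp1KO differed from WT in 2254 genes (25.2% of those tested), 1252 higher (14.0%) and 1002 lower (11.2%). Fgf23cKO differed from WT in 546 (6.11%), 214 higher (2.39%) and 332 lower (3.71%). Dmp1KO Fgf23cKO differed from WT in 1326 (14.8%), 598 higher (6.69%) and 728 lower (8.14%), and from Dmp1KO also in 1326 (14.8%), 550 higher (6.15%) and 776 lower (8.68%). The comparisons with WT share its 3 cultures. With each cell thinned to 2000 UMIs the counts were 522, 113, 244 and 233 in the same order, but of only 1166 genes that could then be tested, of which 447, 83, 196 and 177 were also called at full depth. Without Dmp1KO replicate 2 the first and last were 676 and 168, and without replicate 3 they were 1033 and 338. Without WT replicate 1, 2 or 3 Fgf23cKO differed from WT in 336, 270 or 193 genes, and without Fgf23cKO replicate 1 or 2 in 331 or 345. Leaving out a Dmp1KO culture, which takes no part in it, gave 314 or 310 for that comparison. Without WT replicate 2 or 3 Dmp1KO Fgf23cKO differed from WT in 637 or 635 genes.

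No cyclin or CDK1 gene of 12 tested passed in any of the 4 comparisons at the main settings, where 25.2%, 6.11%, 14.8% and 14.8% of all genes did, and no test set this list against others. Ccnb1 was at 179, 243 and 206 CPM in the members of the WT cultures, 188, 139 and 225 in Fgf23cKO, 189 and 152 in Dmp1KO and 128, 177 and 151 in Dmp1KO Fgf23cKO. Cdk1 was at 191, 199 and 206 CPM in WT, 298, 283 and 129 in Fgf23cKO, 188 and 172 in Dmp1KO and 129, 197 and 214 in Dmp1KO Fgf23cKO. For Ccnb1 the cultures of Dmp1KO Fgf23cKO lay just below WT and the others overlapped it, and for Cdk1 the Dmp1KO cultures lay just below WT. The largest log2 difference of Ccnb1 among the 4 was -0.52 (SE 0.20, adjusted p = 0.13), in Dmp1KO Fgf23cKO against WT. It passed there in macrophage-marked members (-0.51, adjusted p = 0.0937), with no filter on low counts (-0.48, adjusted p = 0.0552) and without Fgf23cKO replicate 2 or Dmp1KO Fgf23cKO replicate 2.

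Nusap1 and Ckap2, which both hold spindle microtubules together, were highest in WT. Nusap1 was at 392, 465 and 432 CPM in WT, 258, 263 and 150 in Fgf23cKO, 163 and 140 in Dmp1KO and 136, 160 and 143 in Dmp1KO Fgf23cKO. Every WT culture lay above every other culture. Its log2 fold change against WT was -0.99 (SE 0.19, adjusted p = 0.0127) in Fgf23cKO, -1.33 (SE 0.21, adjusted p = 0.00125) in Dmp1KO and -1.61 (SE 0.19, adjusted p = 4.02e-04) in Dmp1KO Fgf23cKO. Ckap2 was at 267, 267 and 217 CPM in WT, 148, 131 and 106 in Fgf23cKO, 82.1 and 84.7 in Dmp1KO and 106, 156 and 129 in Dmp1KO Fgf23cKO, again with WT apart, and it passed in all 3 comparisons with WT. Of 23 spindle genes, 2 were higher and 6 lower in Dmp1KO than in WT, none higher and 2 lower in Fgf23cKO, 1 higher and 5 lower in Dmp1KO Fgf23cKO, and none was called between Dmp1KO Fgf23cKO and Dmp1KO. Over all genes 25.2%, 6.11%, 14.8% and 14.8% were called in these comparisons, so that the count in Fgf23cKO is near the share of all genes. With members thinned to 2000 UMIs, neither gene passed in Fgf23cKO, where Nusap1 was at -0.96 (adjusted p = 0.108) and Ckap2 at -0.43 (adjusted p = 0.628). With untagged samples added Ckap2 did not pass in Dmp1KO Fgf23cKO (-0.62, adjusted p = 0.127).

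Hmgb2, a chromatin protein that binds mitotic chromosomes, was also highest in WT. It was at 1400, 1600 and 1520 CPM in WT, 756, 629 and 735 in Fgf23cKO, 687 and 805 in Dmp1KO and 771, 606 and 960 in Dmp1KO Fgf23cKO, with log2 fold changes of -1.15 (SE 0.15), -0.84 (SE 0.17) and -1.02 (SE 0.15) against WT. Top2a was at 805, 964 and 783 CPM in WT, 709, 1050 and 292 in Fgf23cKO, 411 and 341 in Dmp1KO and 305, 455 and 470 in Dmp1KO Fgf23cKO. It was lower in Dmp1KO (log2 fold change -1.0, SE 0.37, adjusted p = 0.082) and in Dmp1KO Fgf23cKO (-1.11, SE 0.33, adjusted p = 0.0546), and in Fgf23cKO the cultures spanned both levels. Lin9 of the DREAM complex was at 57.3, 53.7 and 55.3 CPM in WT, 36.7, 31.4 and 30.4 in Fgf23cKO, 31.7 and 29.4 in Dmp1KO and 40.1, 28.9 and 32.9 in Dmp1KO Fgf23cKO, and was lower in all 3 against WT. The call of Top2a in Dmp1KO was lost with DESeq2 (adjusted p = 0.137) and without any 1 of WT replicates 1, 2 and 3, Fgf23cKO replicate 1 and Dmp1KO replicates 2 and 3 (adjusted p up to 0.397), and in Dmp1KO Fgf23cKO without WT replicate 2 or 3 or its own replicate 1 (up to 0.176) and with untagged samples added (-0.63, adjusted p = 0.256). Lin9 lost its call in Dmp1KO without either Dmp1KO culture (adjusted p up to 0.21), and in Fgf23cKO without any WT culture or Fgf23cKO replicate 2 (up to 0.125). With no filter on low counts Lin9 did not pass in Dmp1KO (-0.64, adjusted p = 0.129) or Fgf23cKO (-0.75, 0.113), and with untagged samples added it did not pass in Fgf23cKO (-0.69, 0.114) or Dmp1KO Fgf23cKO (-0.60, 0.1).

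Ube2s and Mki67 went the other way. Of 14 chromosome genes, Mki67 among them, 0 were higher and 4 lower in Dmp1KO than in WT. The counts were 1 higher and 1 lower in Fgf23cKO, and 1 higher and 3 lower in Dmp1KO Fgf23cKO. Of 14 genes of mitotic exit, Ube2s among them, they were 2 higher and 2 lower, 1 and 0, and 1 and 1, in the same order. Over all genes 14.0% were higher and 11.2% lower in Dmp1KO, 2.39% and 3.71% in Fgf23cKO, and 6.69% and 8.14% in Dmp1KO Fgf23cKO. Taken in either direction, the counts of both lists in Dmp1KO are near the 25.2% of all genes called there. Ube2s was at 297, 302 and 263 CPM in WT, 401, 468 and 526 in Fgf23cKO, 584 and 536 in Dmp1KO and 425, 566 and 493 in Dmp1KO Fgf23cKO, with every WT culture below every other. Its log2 fold change against WT was 0.64 (SE 0.15, adjusted p = 0.0348) in Fgf23cKO, 1.14 (SE 0.16, adjusted p = 6.12e-04) in Dmp1KO and 0.73 (SE 0.15, adjusted p = 0.0105) in Dmp1KO Fgf23cKO. Mki67, the Ki-67 coat protein of mitotic chromosomes, was at 506, 581 and 448 CPM in WT, 770, 1080 and 744 in Fgf23cKO, 602 and 524 in Dmp1KO and 787, 782 and 695 in Dmp1KO Fgf23cKO. It was higher in Fgf23cKO (0.70, SE 0.16, adjusted p = 0.0321) and Dmp1KO Fgf23cKO (0.50, SE 0.16, adjusted p = 0.0656) than in WT. Without WT replicate 3 neither gene passed in Fgf23cKO (adjusted p = 0.143 for Ube2s and 0.145 for Mki67), and with thinned members Ube2s did not pass there (0.51, adjusted p = 0.31). In Dmp1KO Fgf23cKO, Mki67 lost its call without WT replicate 1 or 3, Dmp1KO replicate 2 or its own replicate 2 (adjusted p up to 0.223). Of 19 kinetochore genes, 3 were higher and 1 lower in Dmp1KO than in WT, 1 was higher in Fgf23cKO and 1 lower in Dmp1KO Fgf23cKO, which is no more than the 25.2%, 6.11% and 14.8% of all genes called there.

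**Figure D4:**
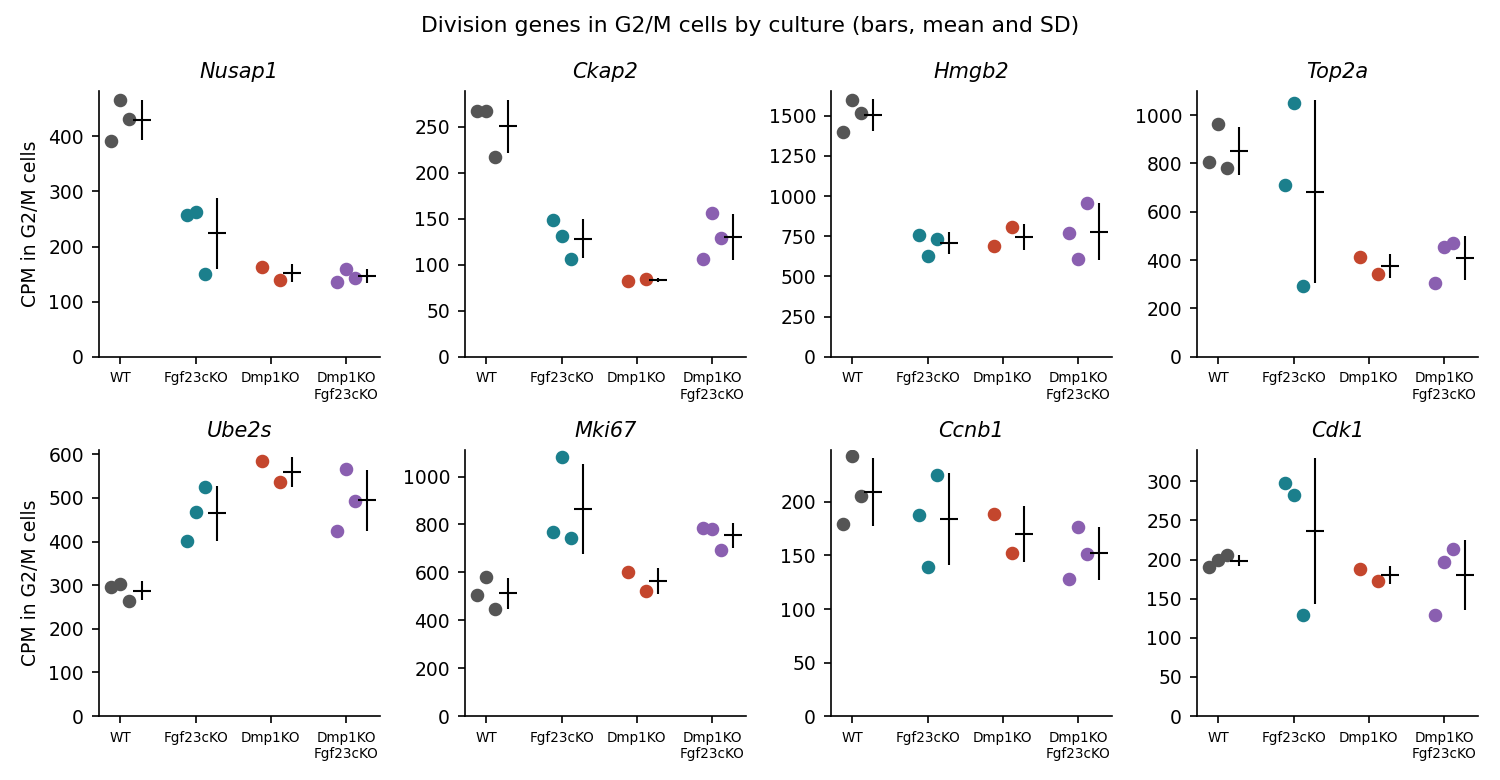
CPM of 8 division genes in the G2/M cells of each tagged culture by genotype (points), with mean and SD beside them; the axes start at 0. WT lies above the other genotypes for Nusap1 (392 to 465 CPM), Ckap2 and Hmgb2 and below them for Ube2s (263 to 302), and Ccnb1 and Cdk1 passed in no comparison at the main settings.

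Of 13 G1 regulators tested, 3 were higher and 3 lower in Dmp1KO than in WT, where 14.0% of all genes were higher and 11.2% lower. Cdk4, the kinase that starts the passage through G1, was at 68, 52.1 and 52.3 CPM in WT, 81.1, 74.5 and 65.3 in Fgf23cKO, 84.8 and 86.7 in Dmp1KO and 83.8, 107 and 116 in Dmp1KO Fgf23cKO. It was higher in Dmp1KO (log2 fold change 0.76, SE 0.19, adjusted p = 0.0151) and in Dmp1KO Fgf23cKO (0.77, SE 0.18, adjusted p = 0.021) than in WT. Cdkn1a was at 306, 239 and 176 CPM in WT and 122 and 90.3 in Dmp1KO, and lower there (-1.0, SE 0.33, adjusted p = 0.055), while Dmp1KO Fgf23cKO, at 115, 236 and 287, overlapped both. Of 23 replication genes 2 were higher and 3 lower in Dmp1KO than in WT, near the 25.2% of all genes called. Pcna was lower in Dmp1KO Fgf23cKO than in Dmp1KO (-1.07, SE 0.23, adjusted p = 0.0139), at 88.3, 86.7 and 134 CPM against 187 and 177. In that comparison 2 of the 23 replication genes were higher and 1 lower, where 6.15% and 8.68% of all genes were. Without Dmp1KO replicate 2 the calls of Cdk4 in Dmp1KO (adjusted p = 0.13) and of Pcna (0.194) were lost. Cdkn1a did not pass with thinned members (-0.59, adjusted p = 0.127) or without WT replicate 1 or 2 or either Dmp1KO culture (up to 0.361).

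Genes of lipid-handling macrophages were far higher in the G2/M cells of Dmp1KO than in those of WT or Dmp1KO Fgf23cKO. Of 12 such genes, 11 were higher in Dmp1KO than in WT and none lower, with a median log2 fold change of 2.98 against -0.03 for all genes, of which 14.0% were higher. In Dmp1KO Fgf23cKO, 11 were lower than in Dmp1KO with none higher (median -2.99), where 8.68% of all genes were lower. Between Fgf23cKO and WT 1 was higher (Lpl, 0.88, SE 0.22, adjusted p = 0.0493), against 2.39% of all genes, and between Dmp1KO Fgf23cKO and WT 2 were lower, against 8.14%. Of these Gpnmb (-0.44, adjusted p = 0.0872) lost its call with the replicate number as a block (0.1), with members of at least 3 M score UMIs (0.103), in macrophage-marked members (-0.29, 0.13), with at least 20 cells per sum (0.191), with thinned members (-0.24, 0.449) and without any 1 of 9 of the 11 cultures (up to 0.286). Both contrasts with the large differences share the 2 Dmp1KO cultures. The list summed to 13330, 15280 and 13820 CPM in WT members, 17360, 13970 and 12150 in Fgf23cKO, 45580 and 38340 in Dmp1KO and 16650, 11330 and 11010 in Dmp1KO Fgf23cKO. Apoe was the member of the list that did not pass against WT, with a log2 fold change of -0.55 (SE 0.27, adjusted p = 0.181), although it passed as lower in macrophage-marked members (-0.58, adjusted p = 0.0434), with thinned members (-0.64, 0.0209), with no filter on low counts (-0.51, 0.00196), with at least 20 cells per sum (-0.55, 0.0952) and without Fgf23cKO replicate 3 (-0.56, 0.0693). Lpl lost its call in Fgf23cKO with thinned members (adjusted p = 0.104), with untagged samples added (0.116) and without WT replicate 1 or 2 or Fgf23cKO replicate 2 (up to 0.161).

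Spp1 (osteopontin), a secreted matrix and cytokine-like protein, was at 664, 850 and 511 CPM in WT members, 1350, 544 and 650 in Fgf23cKO, 17400 and 13500 in Dmp1KO and 1190, 1920 and 317 in Dmp1KO Fgf23cKO. Its log2 fold change was 4.69 (SE 0.58, adjusted p = 2.8e-04) in Dmp1KO against WT and -3.97 (SE 0.56, adjusted p = 0.0012) in Dmp1KO Fgf23cKO against Dmp1KO. Lpl (lipoprotein lipase) was at 149, 149 and 194 CPM in WT, 269, 453 and 226 in Fgf23cKO, 1300 and 1180 in Dmp1KO and 174, 150 and 176 in Dmp1KO Fgf23cKO. Fabp5, a fatty acid carrier, was at 487, 352 and 271 CPM in WT, 627, 589 and 419 in Fgf23cKO, 4900 and 4450 in Dmp1KO and 434, 400 and 296 in Dmp1KO Fgf23cKO. In each of these genes both Dmp1KO cultures lay above all 9 others. Mfge8, a bridge for the uptake of dying cells, had the largest rise of the named genes in Dmp1KO against WT (6.03, SE 0.39). It went from 23.3, 17.4 and 7.47 CPM in WT to 931 and 893 in Dmp1KO, and was at 8.92, 27.3 and 39.5 in Dmp1KO Fgf23cKO. Gpnmb was higher by 1.63 (SE 0.16), Trem2, a lipid receptor, by 1.54 (SE 0.18) and Itgax (CD11c) by 5.63 (SE 0.46) in Dmp1KO.

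Maf, Marco and Mrc1 were lower in Dmp1KO members. Maf, a transcription factor that restrains macrophage division, was at 1460, 1550 and 1700 CPM in WT, 645, 680 and 682 in Fgf23cKO, 170 and 250 in Dmp1KO and 705, 494 and 397 in Dmp1KO Fgf23cKO. It was lower than in WT in all 3, with log2 fold changes of -1.29 (SE 0.19) in Fgf23cKO, -2.73 (SE 0.23) in Dmp1KO and -1.62 (SE 0.19) in Dmp1KO Fgf23cKO. Marco, a scavenger receptor, was at 261, 594 and 380 CPM in WT, 257, 261 and 170 in Fgf23cKO, 6.15 and 18.4 in Dmp1KO and 153, 57 and 60.5 in Dmp1KO Fgf23cKO. Mrc1, the mannose receptor, was at 766, 792 and 928 CPM in WT, 701, 1110 and 785 in Fgf23cKO, 165 and 231 in Dmp1KO and 770, 685 and 588 in Dmp1KO Fgf23cKO, so that Dmp1KO lay below the rest. Over all genes 14.0% were higher and 11.2% lower in Dmp1KO than in WT. Of 14 macrophage genes, 6 were higher, among them Cd14 (2.14, SE 0.30) and Cd68 (0.74, SE 0.17), and 4 were lower, among them Csf1r (-0.84, SE 0.17) and Adgre1 (-0.82, SE 0.205). Vsig4, Kazn, Dmpk, Tfrc (the transferrin receptor) and Mmp9 were among the 12 largest falls, at -4.74, -5.45, -3.07, -2.91 and -6.69. Atp6v0d2, of the osteoclast list, rose instead (3.1, SE 0.72, adjusted p = 0.0106). Of 4 genes of that list tested, 1 was higher and 1, Mmp9, was lower. Mmp9, at 23.3, 6.32 and 108 CPM in WT, is also an osteoclast gene, and lost its call without WT replicate 3 or either Dmp1KO culture (adjusted p up to 0.162). Without Dmp1KO replicate 2, Cd68 lost its call (adjusted p = 0.166), and Adgre1 lost it without either Dmp1KO culture (up to 0.147).

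Of 9 genes that respond to ERK signaling, 5 were lower in Dmp1KO members than in WT, none was higher and 4 did not pass, with a median log2 fold change of -1.23, where 11.2% of all genes were lower. Egr1, an immediate early transcription factor, was at 138, 56.9 and 77.7 CPM in WT, 101, 192 and 62.3 in Fgf23cKO, 11.2 and 12.2 in Dmp1KO and 23.2, 32.9 and 5.26 in Dmp1KO Fgf23cKO, and was lower in both (-2.76, SE 0.54, and -2.09, SE 0.51). Dusp6, a phosphatase that switches ERK off, was at 85.9, 98 and 102 CPM in WT, 94.6, 129 and 60.8 in Fgf23cKO, 28.8 and 26.2 in Dmp1KO and 39.2, 40.9 and 56.6 in Dmp1KO Fgf23cKO. Spred1, a brake on RAS, was at 218, 153 and 197 CPM in WT and 64.8 and 78.8 in Dmp1KO, and was back at 148, 160 and 217 in Dmp1KO Fgf23cKO (log2 fold change 1.05, SE 0.19, adjusted p = 0.00509 against Dmp1KO). Of the 9 genes, Fgf23cKO had 1 higher (Ier3, 0.61, adjusted p = 0.0887, but 0.09 and 0.917 with thinned members and lost without any 1 of 9 of the 11 cultures) and none lower than WT, against 2.39% and 3.71% of all genes. Of 10 immediate early genes of dissociation, 2 were higher and 4 lower in Dmp1KO than in WT, where 14.0% and 11.2% of all genes were, with Fos at -1.41 (SE 0.30) and Atf3 at 1.07 (SE 0.24), and the part of cell handling was not tested. Without Dmp1KO replicate 2 the calls of Atf3 (adjusted p = 0.108) and of Spred1 against Dmp1KO (0.13) were lost, and Spred1 did not pass with thinned members (0.60, adjusted p = 0.398).

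Tnfaip3 and Nfkbia, which both restrain NF-κB signaling, were higher in the members of Fgf23cKO and Dmp1KO Fgf23cKO than in WT. Tnfaip3 (A20) was at 10.7, 22.1 and 8.97 CPM in WT, 39.6, 66.2 and 48.6 in Fgf23cKO, 39.4 and 35.5 in Dmp1KO and 66.9, 65 and 61.8 in Dmp1KO Fgf23cKO. Every WT culture lay below every other, with log2 fold changes of 1.79 (SE 0.31) in Fgf23cKO, 1.59 (SE 0.31) in Dmp1KO and 2.15 (SE 0.30) in Dmp1KO Fgf23cKO. Nfkbia (the inhibitor IκBα) was at 75.2, 90.1 and 80.7 CPM in WT, 229, 180 and 156 in Fgf23cKO, 96 and 90.8 in Dmp1KO and 243, 197 and 428 in Dmp1KO Fgf23cKO. It passed against WT in Fgf23cKO (1.15, SE 0.27, adjusted p = 0.0337) and in Dmp1KO Fgf23cKO (1.74, SE 0.26, adjusted p = 0.00167). Cd83, an activation marker, was at 23.3, 22.1 and 20.9 CPM in WT against 118, 53 and 105 in Dmp1KO Fgf23cKO (1.98, SE 0.34, adjusted p = 0.00377). These genes were named by the size of their change and not by a list. Gphn (gephyrin), a scaffold protein, was at 297, 324 and 313 CPM in Fgf23cKO members against 111, 82.2 and 108 in WT (1.58, SE 0.14, adjusted p = 1.16e-04). Fgfr2, a receptor for fibroblast growth factors, was at 150, 80.6 and 181 CPM in WT, 51.2, 66.2 and 59.2 in Fgf23cKO, 30.2 and 39.9 in Dmp1KO and 58.9, 100 and 50 in Dmp1KO Fgf23cKO. It was lower than in WT in all 3, by log2 fold changes of -1.29 (SE 0.32), -1.80 (SE 0.33) and -1.01 (SE 0.30). In Fgf23cKO, Nfkbia lost its call without WT replicate 1 or 3 or Fgf23cKO replicate 1 (adjusted p up to 0.125), and Fgfr2 without WT replicate 1 or 3 or Fgf23cKO replicate 1 or 3 (up to 0.2) and with untagged samples added (-1.22, 0.104). In Dmp1KO Fgf23cKO, Fgfr2 lost it without WT replicate 1 or 3 or its own replicate 1 or 3 (up to 0.234), with the replicate number as a block (0.101), with untagged samples added (-0.65, 0.3) and with at least 20 cells per sum (-0.82, 0.209).

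Some stromal genes were higher in Dmp1KO Fgf23cKO members, by far less once cells without the macrophage mark were left out. Col1a1 and Ibsp are among the stromal genes that set this mark, so leaving out such cells lowers them by itself. Of 12 tested, 6 were higher than in WT and 6 higher than in Dmp1KO, where 6.69% and 6.15% of all genes were higher. With the replicate number as a block, all 6 calls against WT were lost (adjusted p from 0.11 for Bglap to 0.217 for Col5a2), and 5 of the 6 against Dmp1KO (0.115 for Col5a2 to 0.241 for Sparc). The 6 calls against WT were also lost without WT replicate 2 or 3 or Dmp1KO Fgf23cKO replicate 2 (adjusted p up to 0.874), and the 6 against Dmp1KO without either Dmp1KO culture (up to 0.517). In macrophage-marked members Col5a2 was not tested, and of the other calls that of Sparc against Dmp1KO was lost (log2 fold change 0.78, adjusted p = 0.164) while the rest passed. There Col1a1 went from 5.16 to 1.53 against WT and from 6.18 to 3.03 against Dmp1KO. It was at 121, 130 and 129 CPM in Dmp1KO Fgf23cKO, 33.8, 31.7 and 55.6 in WT and 13.5 and 11.8 in Dmp1KO. In non-cycling cells the stromal list summed to 10200, 17670 and 11980 CPM in Dmp1KO Fgf23cKO. It summed to 952.8 and 1924 CPM in Dmp1KO and to 12100, 6094 and 17880 in WT. The part of RNA from other cells of the reaction in the marked members was not tested. In macrophage-marked members Ibsp went from 4.86 to 0.64 against WT and from 6.02 to 3.40 against Dmp1KO. Without replicate 2 of Dmp1KO Fgf23cKO, its value against WT in all members changed sign. Bglap2, an osteocalcin gene, was at 19.6, 2230 and 14.5 CPM in Dmp1KO Fgf23cKO against 2.50 and 2.20 in Dmp1KO, a log2 fold change of 8.08 (SE 1.99), which was 2.57 without replicate 2 and 2.81 in macrophage-marked members. Acp5 and Mmp9, which osteoclasts make, were also higher than in Dmp1KO, at 3.80 (SE 0.92) and 7.83 (SE 1.58). The calls of Bglap2, Acp5 and Mmp9 were lost without either Dmp1KO culture, with adjusted p up to 0.291, 0.263 and 0.184.

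To ask whether genotypes differed by more or less in dividing cells, the effect of genotype in members was tested against its effect in non-cycling cells of the same cultures (edgeR interaction term over 14618 genes, adjusted p under 0.1). Between Dmp1KO and WT 14 genes passed (0.0958% of those tested), and between Dmp1KO Fgf23cKO and Dmp1KO 24 (0.164%). Between Fgf23cKO and WT none did (0%), with 820 genes at an unadjusted p under 0.05 and 36 calls by DESeq2, and between Dmp1KO Fgf23cKO and WT none (0%), with 952 and 60. Between Dmp1KO and WT the count was 0 without WT replicate 2, WT replicate 3 or Dmp1KO replicate 2, 1 without Dmp1KO replicate 3 and 3 without WT replicate 1, and it was 38 without replicate 2 of Dmp1KO Fgf23cKO. Between Dmp1KO Fgf23cKO and Dmp1KO it was 6 and 5 without Dmp1KO replicates 2 and 3, and 110 and 79 without replicates 1 and 2 of Dmp1KO Fgf23cKO. The counts of calls therefore depend on single cultures.

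Mmp12 and Fabp4 were low in dividing cells of every genotype but Dmp1KO. Mmp12 was at 32.2, 12.6 and 23.9 CPM in the members of WT, 51.2, 9.93 and 118 in Fgf23cKO, 1100 and 803 in Dmp1KO and 30.3, 12.8 and 22.4 in Dmp1KO Fgf23cKO. In non-cycling cells it was at 659, 450 and 528 CPM in WT, 493, 391 and 701 in Fgf23cKO, 2470 and 1930 in Dmp1KO and 407, 353 and 306 in Dmp1KO Fgf23cKO. The rise in Dmp1KO over WT was thus steeper in members, by 3.38 on the log2 scale (SE 0.43, adjusted p = 0.0225), and by 3.19 to 3.56 with any culture left out, where adjusted p ran from 3.29e-04 to 0.283 and missed the threshold without WT replicate 2 or 3 or Dmp1KO replicate 2. In macrophage-marked cells alone it was 3.47 (adjusted p = 2e-06). Fabp4, a fatty acid carrier, was at 25.1, 6.32 and 5.98 CPM in WT members and 420 and 336 in Dmp1KO, and at 185, 45.5 and 67 against 318 and 245 in non-cycling cells. Its interaction was 3.45 (SE 0.57, adjusted p = 0.068), and was lost with DESeq2 (adjusted p = 0.122) and without any WT or Dmp1KO culture or Fgf23cKO replicate 1 (up to 0.389). The members of the WT cultures held 558819, 632876 and 668986 UMIs over all genes, so the WT levels of Fabp4 in members rest on few UMIs. In S cells Mmp12 was also low outside Dmp1KO, at 93, 17.7 and 41.8 CPM in WT against 1350 and 1060 in Dmp1KO.

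Fabp5 and Il7r followed. Fabp5 was at 1260, 1240 and 1280 CPM in non-cycling WT cells and 3650 and 3200 in Dmp1KO, a smaller step than the one given for members, with an interaction of 2.26 (SE 0.34, adjusted p = 0.068). Il7r, the interleukin-7 receptor, was at 3.58, 7.90 and 4.48 CPM in WT members and 218 and 165 in Dmp1KO, and at 43.9, 26.1 and 29.3 against 291 and 243 in non-cycling cells (2.10, SE 0.33, adjusted p = 0.068). Its WT levels in members, like those of Fabp4, rest on few UMIs. Against Dmp1KO, Dmp1KO Fgf23cKO members had steeper falls in Fabp4 (-4.97, SE 0.69), Npy (-4.07, SE 0.65), Mmp12 (-2.86, SE 0.40), Il7r (-2.51, SE 0.29) and Fabp5 (-2.18, SE 0.34). These 2 contrasts share the Dmp1KO cultures. Between Dmp1KO and WT, Fabp5 lost its call without WT replicate 2 or 3 or either Dmp1KO culture (adjusted p up to 0.389), and Il7r without any WT or Dmp1KO culture or Fgf23cKO replicate 1 (up to 0.405). Between Dmp1KO Fgf23cKO and Dmp1KO, Fabp5 lost it without either Dmp1KO culture (up to 0.132) and Npy without Dmp1KO replicate 2 (0.169), while Fabp4, Mmp12 and Il7r passed with any culture left out. In both Dmp1KO cultures, members held more Fabp4 and Fabp5 than non-cycling cells, and in the 9 other cultures they held less. Mfge8 was not among the interaction calls, at 37.3, 23.6 and 54.2 CPM in non-cycling WT cells and 1360 and 1160 in Dmp1KO.

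Other interactions went in the opposite direction or at lower levels. Hmgb2 was lower in Dmp1KO than in WT by more in members than in non-cycling cells (-0.95, SE 0.18, adjusted p = 0.098). Apobec3, an antiviral cytidine deaminase, was at 66.2, 85.3 and 83.7 CPM in WT members and 19.2 and 16.6 in Dmp1KO, against 28.1, 30.3 and 26.5 and 17.7 and 18.3 in non-cycling cells (-1.47, SE 0.24). Arhgap25, a RAC-directed regulator, was at 84.1, 77.4 and 80.7 CPM in WT members and 131 and 118 in Dmp1KO, while non-cycling cells went from 82, 83.7 and 79.3 to 307 and 253 (-1.15, SE 0.19). Ccl9, a chemokine, was at 243, 169 and 368 CPM in members of Dmp1KO Fgf23cKO and 187 and 179 in Dmp1KO, but lower in its non-cycling cells, at 82.8, 65.7 and 80.5 against 181 and 176 (1.67, SE 0.22, adjusted p = 0.019). Igfbp5, a stromal secreted protein, had an interaction of 5.54 (SE 0.88) between Dmp1KO and WT, but its members held 0 to 10 UMIs in a culture, so that this value rests on its level in non-cycling cells. In macrophage-marked cells it was 9.6 and did not pass (adjusted p = 0.12). The calls of Hmgb2, Apobec3, Arhgap25 and Igfbp5 between Dmp1KO and WT were each lost without any WT or Dmp1KO culture and without Fgf23cKO replicate 1, with adjusted p up to 1, 0.847, 1 and 0.389. Arhgap25 also lost it without Fgf23cKO replicate 2, and Hmgb2 without Fgf23cKO replicate 2 or 3.

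**Figure D5:**
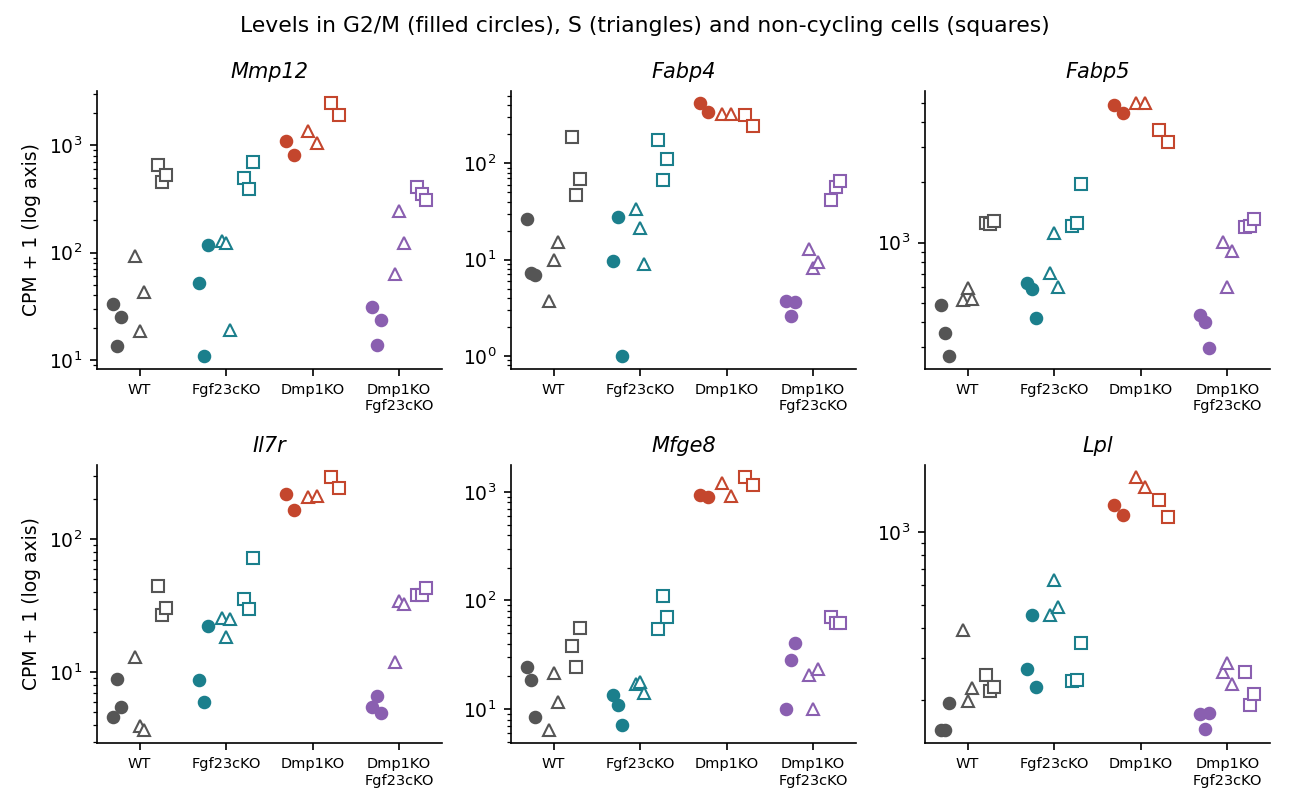
CPM + 1 (log axis) of 6 genes by genotype and culture in G2/M cells (filled circles), S cells (triangles) and non-cycling cells (squares). In WT, Mmp12 lies at 12.6 to 32.2 CPM in G2/M cells and 450 to 659 in non-cycling cells, and in Dmp1KO at 803 to 1100 and 1930 to 2470.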

How the data were processed

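Cells were labelled with CellPlex tags per culture, and the authors aligned the reads with Cell Ranger 7.0.1 to mm10, assigned cells to tags and named Seurat among their tools. Untagged cells were deposited as a further sample per genotype (replicate 4). The deposited files hold raw UMI counts of 32285 genes per cell, per the file headers. The study describes cells of 3 mice per genotype, while the labels tie no culture to a mouse, so p-values measure the spread between cultures.

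Cells were filtered and chosen as stated in the report, with no doublet caller beyond the tag assignment. Counts of members were summed per culture (at least 10 cells) and tested with edgeR 4.0.16 (quasi-likelihood, TMM factors, low genes removed by filterByExpr, R 4.3.3). The interaction was fitted on members and non-cycling cells with culture as a block. DESeq2 1.42.0 was an alternative. Shares, log2 ratios and UMI ratios of cultures were compared by exact two-sided permutation tests in scipy 1.17.1 or by full enumeration of 92400 arrangements over 4 genotypes. State ratios used a pseudocount of 1 CPM and genes of at least 20 CPM. The scripts were tested on simulated data. For G2/M sums of Dmp1KO against WT, 47.4% of 2-fold and 86% of 4-fold changes were recovered, with 13.8% false calls. That share is above what the adjusted p threshold of 0.1 allows. The simulation changed 200 of 8938 genes in 5 draws, far fewer than the 2254 called in the data.

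Named genes were the 12 largest calls per direction and comparison (6 for the interaction) whose cultures did not overlap and whose mean level was at or above the median of all genes tested, leaving out the 17 score genes and predicted genes; the 20 highest and 10 lowest genes by state; and the most abundant members of 29 lists (317 genes). Other list members named in the text were chosen after their values were seen. Members, lists and tests were chosen with earlier results of these data known. Near-identical genes such as Bglap and Bglap2 can share reads, so their split is uncertain.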

Additional observations from a re-analysis of the deposited data

Results flagged for a closer look

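The untagged cells of Dmp1KO Fgf23cKO lay far from the 3 tagged cultures of that genotype, with 7.50% G2/M cells and a log2 ratio of median UMIs in G2/M over non-cycling cells of -1.92. Of 9 groups tested for such a sample, these 2 were found, both in the same untagged sample. How many would be found by chance was not tested.

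The interaction term passed for named genes, that is, the effect of genotype differed between G2/M and non-cycling cells. Between Dmp1KO and WT the log2 differences were 5.54 for Igfbp5, 3.45 for Fabp4, 3.38 for Mmp12, 2.33 for Rnf144b, 2.26 for Fabp5 and 2.10 for Il7r, and -1.47 for Apobec3, -1.16 for Agap1, -1.15 for Arhgap25, -0.95 for Hmgb2, -0.80 for Acer3 and -0.72 for Tagln2. Between Dmp1KO Fgf23cKO and Dmp1KO they were 2.85 for Bdh2, 1.68 for Malt1, 1.67 for Ccl9, 1.33 for Airn, 1.15 for Arhgap25 and 1.07 for Apex1, and -5.22 for Igfbp5, -4.97 for Fabp4, -4.07 for Npy, -2.86 for Mmp12, -2.51 for Il7r and -2.18 for Fabp5. Adjusted p ran from 0.0225 to 0.098 in the former and from 0.00797 to 0.0635 in the latter.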

How the results depend on the processing

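Genotype is 1 droplet reaction, most G2/M sums of Fgf23cKO and Dmp1KO Fgf23cKO hold under 25 cells, and the WT cells are the shallowest, which limits what was detectable for genes of low level. The cause of the changes below was not tested. The 2254, 546, 1326 and 1326 genes called in G2/M cells (Dmp1KO, Fgf23cKO and Dmp1KO Fgf23cKO against WT, and Dmp1KO Fgf23cKO against Dmp1KO) became 522, 113, 244 and 233 with members thinned to 2000 UMIs, where shallower cells and fewer genes enter. At an adjusted p under 0.05 the last 3 were 300, 834 and 774. With no filter on low counts Fgf23cKO against WT gave 936 and Dmp1KO Fgf23cKO against Dmp1KO 2060, with macrophage-marked members the former gave 854, and with untagged samples the latter gave 2282. With 1 culture left out the 4 counts ran from 676 to 2552, 193 to 697, 635 to 1678 and 168 to 1646.

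The interaction counts of 14, 0, 0 and 24, in the same order, were 173, 244, 297 and 292 with no filter, 127, 36, 60 and 324 with DESeq2, 66, 2, 22 and 450 in macrophage-marked cells, and 1 and 15 (first and last) at an adjusted p under 0.05. With 1 culture left out they ran from 0 to 38, 0 to 5, 0 to 89 and 5 to 110.

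The difference in the share of G2/M cells between Dmp1KO and WT was 0.198 percentage points with untagged samples added, 1.53 with cells thinned and 0.325 to 1.25 with a culture left out. Between Fgf23cKO and WT it was -1.85, -1.91 and -1.81 to -0.885, between Dmp1KO Fgf23cKO and Dmp1KO -1.38, -3.23 and -2.40 to -2.36, and between Dmp1KO Fgf23cKO and WT -2.055 to -1.135 with a culture left out. The log2 ratio of G2/M to S cells turned to -0.0930 for Dmp1KO against WT with untagged samples (-0.0438 to 0.463 with a culture left out) and to 0.293 for Dmp1KO Fgf23cKO against Dmp1KO, and was -1.30 for Fgf23cKO against WT with cells thinned. The UMI ratio with untagged samples gave differences of 0.799 (Dmp1KO against WT), -0.0835 (Fgf23cKO against WT) and -0.676 (Dmp1KO Fgf23cKO against Dmp1KO). Over the 4 genotypes, p with untagged samples (permutation test, 100000 draws) was 0.318 for the share and 0.162 for the ratio, and with a culture left out (exact permutation) 0.00127 to 0.0379 for the share and 0.0107 to 0.0679 for the ratio.

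Replicate numbers are given in the labels, but same-numbered cultures did not deviate together (median r of -0.012 over 15 pairs, against 0.002 over 30 other pairs). With the replicate number as a block, the counts of calls were 1868, 387, 1079 and 944, and the samples share only a number. For single genes, 6931 values of 346 results had an adjusted p under an alternative. The values that changed sign were Igfbp5 between Dmp1KO Fgf23cKO and Dmp1KO in macrophage-marked cells (interaction 0.53, adjusted p = 0.953), Ibsp in Dmp1KO Fgf23cKO against WT without replicate 2 of the former (-0.25, with 5.44 at the other end of the range), Ier3 in that comparison (-0.02) and Cdca8 between Dmp1KO Fgf23cKO and Dmp1KO (0.02) with thinned members, and the uncalled Ccnb1 in Dmp1KO against WT without WT replicate 2 (0.00) or Dmp1KO replicate 3 (0.07; lowest -0.33) and Apoe in Dmp1KO Fgf23cKO, against WT with thinned members (0.01) and against Dmp1KO without replicate 1 of Dmp1KO Fgf23cKO (-0.04; highest 0.41).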
